A study of Rattus norvegicus with 8 samples.

Results

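Birc3 and Ubd, a feedback gene and a target gene of the transcription factor NF-kB, had far higher signals in the kidneys of rats given the polymyxin antibiotic colistin than in those given saline. They are described here with 7 further genes of the same pathway: Nfkbia, Nfkb1, Nfkb2, Relb, Tnfaip3, Icam1 and Vcam1. Birc3 and Ubd were chosen by their large difference between colistin and saline, so their values are a description with no test. The other 7 were listed for their role in the pathway. A gene was matched to a probe by the RefSeq transcript accession on the array, and 7 of the 9 genes had a matched probe, out of 15637 genes named on the array in all. Relb and Tnfaip3 had none and have no value here. Each of the 7 was measured by 1 probe, and all 7 probes were kept for the fit.

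Total RNA from kidney of male rats, 10 weeks old per the labels, was hybridised to 1-colour Agilent arrays, with 4 saline samples and 4 samples of 30 mg/kg colistin, all taken at day 28. The strain, the route and the number of doses are not given in the sources used here. The series title speaks of injured tubules, while the labels name the tissue as kidney. The labels number the samples of each group without saying that each came from its own animal, and each p-value therefore reflects sample-to-sample spread that may in part be technical. All 10 proximal tubule, 7 thick ascending limb, 8 collecting duct and 6 podocyte markers looked for had a kept probe.

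NF-kB is a family of dimeric transcription factors held in the cytoplasm by inhibitor proteins of the IkB type. Receptors of the tumour necrosis factor, interleukin 1 and Toll-like families lead to activation of the IkB kinase and to breakdown of the inhibitor. The freed dimers switch on inflammatory genes together with genes that end the signal, among them the inhibitor IkB-alpha (Nfkbia) and the ubiquitin-editing enzyme of Tnfaip3. Birc3 encodes a cellular inhibitor of apoptosis, a ubiquitin ligase at the tumour necrosis factor receptor complex that restrains the kinase of the non-canonical branch. Ubd encodes a ubiquitin-like modifier that tags proteins for the proteasome, and it is known as a gene induced by tumour necrosis factor together with interferon gamma. Tubule cells of the kidney can run this pathway themselves, as can endothelium and leukocytes.

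Promoters of some of the measured genes are shown because the classic binding motif of NF-kB, the kappa-B consensus, lay close to the start of several of them. In the RefSeq promoter table (build GRCr8) 7 of the 9 genes had an entry, all but Birc3 and Relb. The 250 bases before the transcription start were searched on both strands, and nothing was searched for Birc3 or Relb. The kappa-B consensus matched in 5 of the 7 genes with an entry, Ubd, Nfkb2, Nfkbia, Vcam1 and Tnfaip3, against 6.33% of all 33469 promoters of that length. Being members of this pathway is how the genes were picked, so the share is a description. The nonamer GGAAATTCC was added as a search after the sequences were seen. It lies within the Nfkbia match and occurs once in the Icam1 promoter, which has no consensus match, and it was found in 0.287% of all promoters. The sequences below run 5′ to 3′ in the direction of transcription and end at the base before the start. Capitals mark a consensus match or the nonamer.
Ubd: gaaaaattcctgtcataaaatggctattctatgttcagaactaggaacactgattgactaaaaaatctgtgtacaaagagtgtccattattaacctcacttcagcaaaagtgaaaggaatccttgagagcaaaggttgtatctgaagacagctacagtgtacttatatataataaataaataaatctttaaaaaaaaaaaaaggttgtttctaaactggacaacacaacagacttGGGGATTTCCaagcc
Nfkb2: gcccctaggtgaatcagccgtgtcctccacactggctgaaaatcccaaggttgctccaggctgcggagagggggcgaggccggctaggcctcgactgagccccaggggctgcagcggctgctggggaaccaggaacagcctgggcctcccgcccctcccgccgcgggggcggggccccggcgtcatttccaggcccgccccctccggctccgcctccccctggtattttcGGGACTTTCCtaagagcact
Nfkbia: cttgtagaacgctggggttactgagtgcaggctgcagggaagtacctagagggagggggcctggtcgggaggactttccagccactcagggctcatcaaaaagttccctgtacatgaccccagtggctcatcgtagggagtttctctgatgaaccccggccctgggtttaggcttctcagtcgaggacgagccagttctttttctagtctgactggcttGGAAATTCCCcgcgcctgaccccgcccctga
Vcam1: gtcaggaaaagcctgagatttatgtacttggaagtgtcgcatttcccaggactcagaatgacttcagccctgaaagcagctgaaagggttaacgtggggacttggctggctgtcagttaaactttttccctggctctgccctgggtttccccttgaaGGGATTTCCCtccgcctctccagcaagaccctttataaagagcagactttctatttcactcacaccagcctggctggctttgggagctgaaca
Icam1: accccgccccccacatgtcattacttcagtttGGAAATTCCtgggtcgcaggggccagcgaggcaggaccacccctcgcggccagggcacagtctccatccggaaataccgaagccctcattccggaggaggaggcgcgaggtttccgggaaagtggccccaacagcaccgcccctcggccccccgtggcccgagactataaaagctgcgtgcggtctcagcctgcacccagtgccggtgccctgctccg

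The Ubd stretch covers chr20:1392686-1392935 on the minus strand, and its match GGGGATTTCC lies 15 to 6 bases before the start. The Nfkb2 stretch covers chr1:255108124-255108373 on the plus strand, with GGGACTTTCC 20 to 11 bases before the start. In Nfkbia (chr6:78597073-78597322, minus strand) the match lies on the opposite strand, 31 to 22 bases before the start. The Vcam1 stretch (chr2:206742784-206743033, minus strand) holds a match that reads on both strands, 93 to 84 bases before the start. In Icam1 (chr8:27829595-27829844, plus strand) the nonamer lies 218 to 210 bases before the start. No consensus match was found in the Nfkb1 window. A match is a run of letters in the window and was not tested for binding.

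Birc3 and Ubd were higher on all 4 colistin arrays than on any saline array. Signals below are the processed spot intensities of each array in linear units, which are not scaled between arrays. The colistin arrays were brighter, with a 75th percentile of 271 to 317 against 156 to 197 on the saline arrays. Differences are therefore taken on the scaled level, the log2 signal minus the array's 75th percentile. On that scale the median difference over all 12411 genes tested was -0.14. The software's well-above-background flag was also passed more often with colistin, by 79.1% to 83.9% of non-control spots per array. On the saline arrays it was 69.3% to 75.8%.

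Birc3 gave signals of 2.20, 1.17, 1.86 and 1.25 on saline arrays 1 to 4, and none of these was well above background. On colistin arrays 1 to 4 it gave 440.5, 341, 405 and 355, all well above background. The 4 colistin values lay close together (SD 0.23 of the scaled log2 level), and the groups did not overlap. The fold was 94.1 from the colistin mean against the higher of the probe's own saline value and the lowest signal well above background on that array. Probes not well above background can lie over that lowest signal, so this fold is not a strict minimum. On saline array 3 the probe of Ltb, a lymphotoxin subunit gene, was such a case, at a scaled level of -4.42 against a lowest signal of -5.93. The fitted difference of 7.16 ± 0.34 (log2, SE, n = 4 per group) rests on saline values at background and is not a size. The fold of 94.1 holds only for the processed, background-subtracted signal. With normexp background correction, which adds an offset of 50 to every spot, the difference was 2.22 (log2).

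Ubd, spotted 10 times on each array, gave mean signals of 17.3, 80.2, 74.1 and 11.9 on saline arrays 1 to 4. On colistin arrays 1 to 4 these were 1789, 4804, 1778 and 3982. At least 1 copy was well above background on each of the 8 arrays, a mark that a probe with 10 copies meets more easily than a probe with 1. Unlike that of Birc3, its fold was therefore taken from such values on both sides. The scaled level was -2.39 ± 1.24 (SD, n = 4) with saline and 3.22 ± 0.69 (SD, n = 4) with colistin, a difference of 5.61 ± 0.66 (log2, SE) or 48.9-fold, and 4.25 (log2) with normexp. Saline arrays 2 and 3 lay well above saline arrays 1 and 4. Colistin arrays 2 and 4 lay above colistin arrays 1 and 3. The copies of the Ubd probe on 1 array had a coefficient of variation of 2.02% to 20.8%, and the largest was on the dimmest array, saline array 4.

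**Figure D1:**
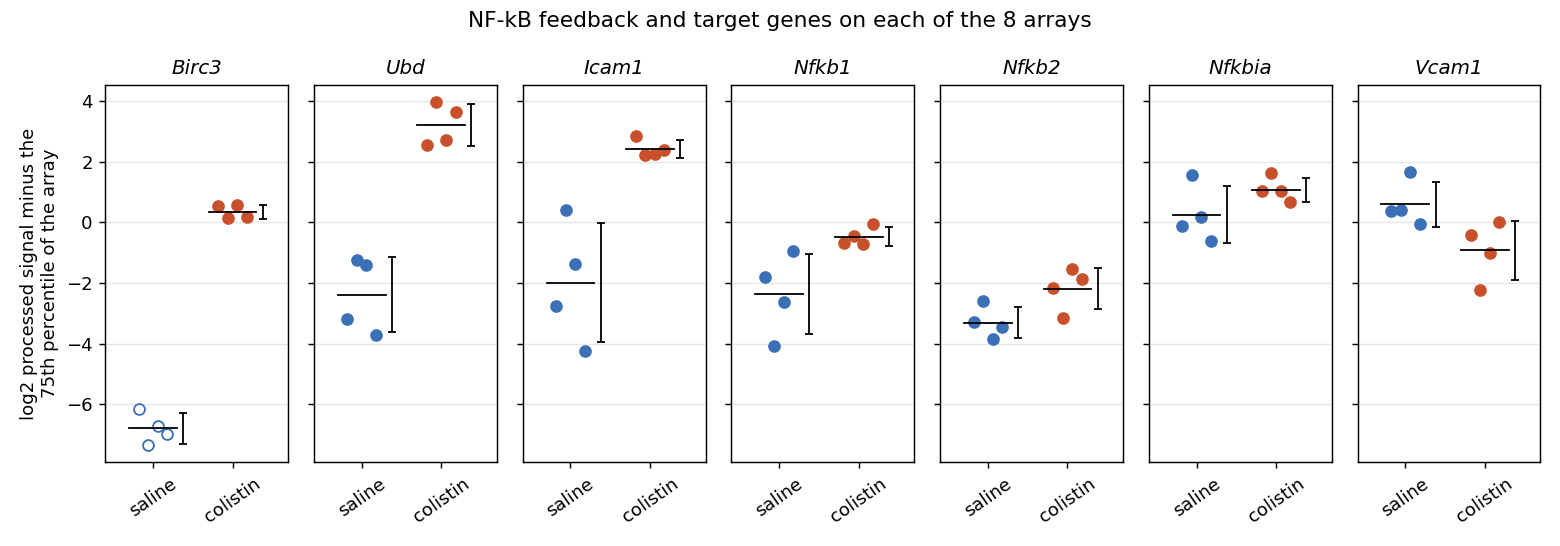
Scaled log2 level (relative to each array's 75th percentile) of the 7 measured genes on each of the 4 saline (blue) and 4 colistin (orange) arrays, with open points for spots not well above background, a line at the mean and a bar of 1 SD. Birc3, Ubd, Icam1 and Nfkb1 do not overlap between the groups, and levels should be read within a gene, since probes differ in brightness.

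The genes whose profiles over the 8 arrays lay nearest to that of Birc3 were Pvr, Map3k6, Pdpn, Gpr37l1 and Gprc5a. Likeness was the root mean square difference between profiles after each gene was centred on its own mean, and it ran from 0.47 to 0.73 log2 units for these 5. Group means were not removed, so it includes the difference between colistin and saline by which Birc3 and Ubd were chosen. Genes with a difference of like size are therefore near by construction, and the ranks are a description. Of them Map3k6 was well above background on 1 saline array and the other 4 on none, so these profiles share a saline level at background. The nearest to Ubd were Bbc3, Atat1, Anxa2, Adamts1 and Lhfpl2, at 0.51 to 0.75 log2 units. Bbc3 encodes a pro-apoptotic protein of the BCL2 family, Anxa2 a calcium-dependent membrane-binding protein and Adamts1 a secreted metalloproteinase. Of these 5, Anxa2 was well above background on all 4 saline arrays (difference 4.64, log2), Adamts1 and Lhfpl2 on 3, Bbc3 on 2 and Atat1 on 1. Icam1 stood at rank 15 by nearness to Ubd, at 0.99 log2 units. Birc3 itself stood at rank 66, at 1.34.

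The other 5 measured members were the subunit genes Nfkb1 and Nfkb2, the inhibitor gene Nfkbia and the adhesion molecule genes Icam1 and Vcam1. None of the 5 passed the test over all genes, limma with Benjamini-Hochberg adjustment at a threshold of 0.05 (two-sided), where 1.46% of all genes tested were called higher and 0.540% lower. At an unadjusted p under 0.05 the count was 4 of 5, 3 with a positive and 1 with a negative difference, against 22.7% of all genes. That share is also the one to set beside the unadjusted counts of the lists below. The groups did not overlap for Icam1 and Nfkb1, both higher with colistin, as was so for 6.89% of all genes, and 11.7% of genes were lower without overlap. Within this set the differences ran from -1.51 for Vcam1 to 4.40 for Icam1.

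Nfkbia encodes IkB-alpha, the inhibitor that NF-kB itself induces. Its signals were 143, 568, 220.5 and 101 on saline arrays 1 to 4 and 620.4, 941, 552 and 502 on colistin arrays 1 to 4. On the scaled level saline array 2, at 1.57, exceeded 3 of the 4 colistin arrays, so the groups overlapped. The difference was 0.84 ± 0.50 (log2, SE, adjusted p = 0.337), with a 95% interval from -0.31 to 1.99.

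Nfkb1, the gene of a precursor that is processed to a DNA-binding subunit, gave 45.2, 11.5, 32.0 and 80.3 with saline and 189.8, 227, 163 and 308 with colistin. The lowest colistin array was above the highest saline array on the scaled level too, at -0.73 against -0.96. The saline arrays were spread over an SD of 1.32 and the colistin arrays over 0.31. The difference of 1.88 ± 0.63 (log2, SE) had an adjusted p of 0.153 and did not pass. With normexp background correction it was 0.94 and passed (adjusted p = 0.0473).

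Nfkb2 encodes the precursor of the non-canonical branch, the branch that Birc3 protein restrains. Its signals were low, 15.8, 31.5, 13.7 and 14.1 with saline and 67.7, 34.6, 92.3 and 87.5 with colistin. Colistin array 2, at a scaled level of -3.15, lay within the saline range. The difference was 1.12 ± 0.44 (log2, SE, adjusted p = 0.191), and with normexp it was 0.15 (adjusted p = 0.646). Relb, the partner of the Nfkb2 product, had no matched probe.

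Icam1 encodes the adhesion molecule that binds leukocyte integrins, made by endothelium and by injured tubule cells. Its 10 copies averaged 23.2, 253, 76.5 and 8.30 on saline arrays 1 to 4 and 2190.0, 1426, 1279 and 1643 on colistin arrays 1 to 4. The lowest colistin array stood well over the highest saline array. The saline samples differed widely among themselves (SD 1.98 of the scaled log2 level) and the colistin samples little (SD 0.29). The difference of 4.40 ± 0.89 (log2, SE) was 21.2-fold, with a 95% interval from 2.36 to 6.45, and its adjusted p of 0.0515 lay just outside the threshold. Without saline array 2, the highest of its group, it was 5.20 with an adjusted p of 0.0193, and without colistin array 1 the adjusted p was 0.135. The copies within an array had a coefficient of variation of 4.05% to 21.0%.

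Vcam1, the adhesion molecule of activated endothelium and also of other kidney cells, was the 1 measured member with a negative difference. It gave 202, 254, 623 and 149.5 with saline and 229.6, 64.7, 134 and 317 with colistin, so the groups overlapped in signal. On the scaled level colistin array 4, at -0.0014, lay above saline array 4, at -0.06, and the other 3 colistin arrays lay below every saline array. The difference was -1.51 ± 0.58 (log2, SE, adjusted p = 0.185). Genes that mark endothelium were lower on the same arrays: 11 of the 12 listed were tested, all 11 had a negative difference and 4 fell (Pecam1, Kdr, Flt1 and Plvap), with a median of -2.85 (Vwf was positive with slide as a block and without saline array 4 or colistin array 1). Their summed scaled level (linear units of the array's 75th percentile) was 39.3 to 60.5 on saline and 5.71 to 9.94 on colistin arrays, and Tie1 was not well above background on any colistin array. Of all 12411 genes tested, 6815 had a negative difference and 0.540% were called lower. The part of the endothelial markers in the Vcam1 value was not tested. In bulk RNA, fewer cells of a type and less RNA per cell cannot be told apart.

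**Figure D2:**
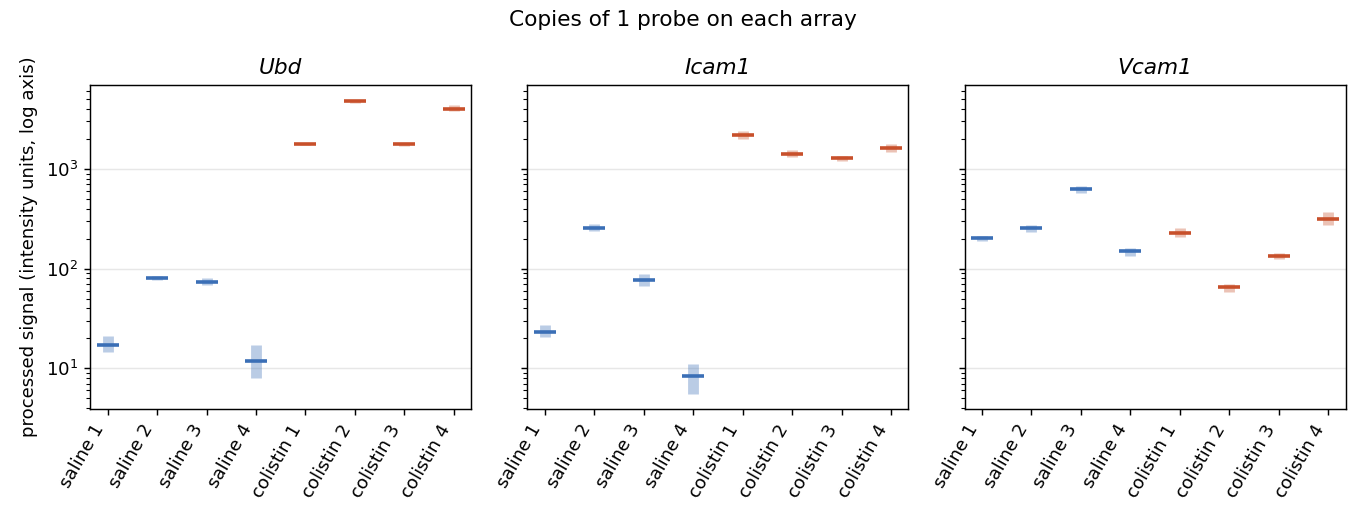
Processed signal in intensity units on a log axis for the probes of Ubd, Icam1 and Vcam1 on each array, with a short line at the mean of the 8 to 10 copies used and a shaded bar from the lowest to the highest copy. The copies lie close together, while saline arrays 1 and 4 lie below saline arrays 2 and 3 for Ubd and Icam1.

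On the saline arrays 3 of the members ran in the same order. Ubd, Icam1 and Nfkbia were each highest on array 2, then on 3, 1 and 4, on the scaled level as in signal. Nfkb1 ran in the opposite order, highest on array 4 and lowest on array 2. With 4 arrays this is a description.

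The arrays lay on 3 slides, each holding both groups, with saline arrays 1 and 4 and colistin array 2 on slide 1, saline array 2 and colistin array 3 on slide 2, and the rest on slide 3. Saline arrays 1 and 4, the lower 2 saline arrays for Ubd, Icam1 and Nfkbia, thus shared a slide. Both also had a 75th percentile of 156, against 192 and 197 on saline arrays 2 and 3. Sample, slide and brightness cannot be told apart in that split. Within slides 1, 2 and 3 the difference for Ubd was 7.42, 3.97 and 4.51. For Birc3 it was 6.71, 7.93 and 7.07, each against saline values at background. Icam1 gave 5.71, 1.84 and 3.97, and Nfkb1 gave 0.94, 3.34 and 2.26. For Nfkb2 the values were 0.24, 1.05 and 1.83, and for Vcam1 -2.40, -1.42 and -1.87. Nfkbia alone changed sign between slides, with 1.99, -0.54 and 0.68. With slide as a block the adjusted p was 0.105 for Icam1, 0.172 for Nfkb1, 0.265 for Nfkb2, 0.409 for Nfkbia and 0.096 for Vcam1.

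**Figure D3:**
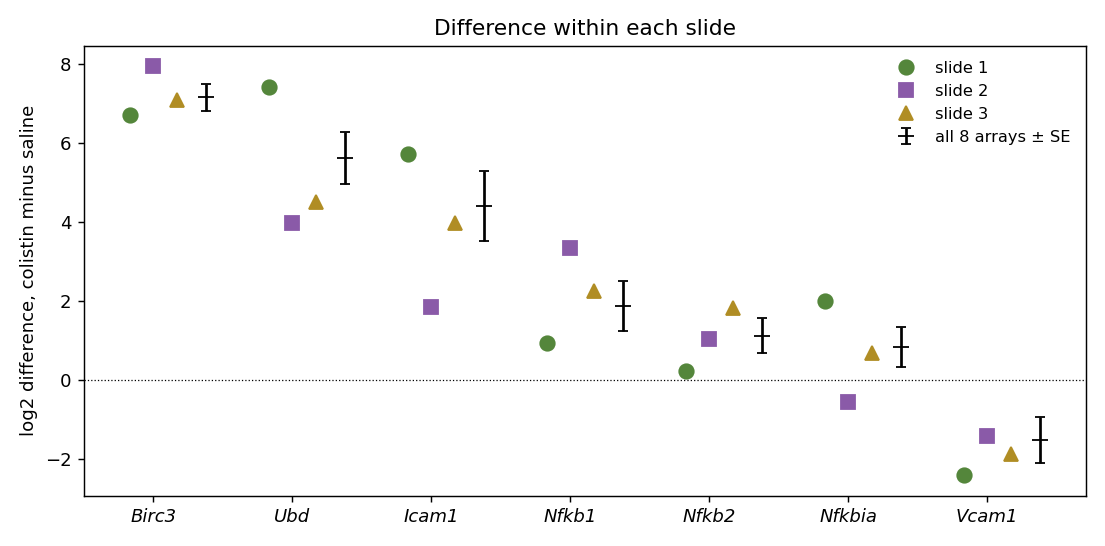
Difference between colistin and saline (log2 of scaled signal) within each of the 3 slides for the 7 measured genes, beside the estimate over all 8 arrays with a bar of 1 SE. The Birc3 differences (6.71 to 7.93) are taken against saline values at background and are not sizes, Ubd and Icam1 are largest on slide 1, and Nfkbia is below 0 on slide 2.

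The rest of the pathway was read from 6 lists by role: ligands, receptors, kinases and adaptors, subunits and inhibitors, feedback genes, and targets. Without the 9 genes above, 98 genes were listed, 84 had a probe and 72 were tested. Of these 2 rose (2.78%) and 0 fell, near the background of 1.46% and 0.540% of all genes. Their median difference was 0.70 against -0.14 over all genes, and 44 of the 72 (61.1%) had a positive difference against 45.1% of all genes. With the groups not overlapping, 8 were higher and 4 lower, where 6.89% of all genes were higher and 11.7% lower in this way.

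Among ligands 0 of 9 tested passed (limma, 3 at an unadjusted p under 0.05), with a median of -0.52 and 7 of 9 below 0. Il1b, the gene of interleukin 1 beta, gave -2.73 ± 1.15 (log2, SE, adjusted p = 0.208). Ltb, a lymphotoxin subunit gene, had spots well above background on all 4 colistin arrays but on none of the saline arrays. That flag was passed more often on colistin arrays in general. Colistin array 2, flagged so at a scaled level of -4.51, lay below saline array 3, not flagged so at -4.42. The groups of Ltb overlapped, and the difference was 1.87 ± 0.73 (log2, SE, limma adjusted p = 0.188). The gene is mentioned after its values were seen. Tnf was well above background on 1 array of each group and was not tested.

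The 2 genes of the lists that rose were receptors of the tumour necrosis factor family. Tnfrsf1b encodes the second receptor for tumour necrosis factor. It gave signals of 1.45, 1.20, 1.91 and 1.51 on saline arrays 1 to 4, none well above background, and 93.3, 17.2, 72.5 and 335 on colistin arrays 1 to 4. Taken in the same way as for Birc3, the fold was 20.0, which is not a strict minimum. The adjusted p of 0.0238 (limma) belongs to the fitted difference of 4.94 ± 0.79 (log2, SE), which rests on saline values at background. The Tnfrsf1b probe was kept for the fit through the colistin arrays alone, so its call is a description. Tnfrsf12a, the receptor for the cytokine TWEAK, rose by 4.43 ± 0.80 (log2, SE, adjusted p = 0.0349). Its signals were 51.5, 160, 77.5 and 7.86 with saline and 2274, 1213, 1521 and 2281 with colistin, with saline array 4 lowest as for Icam1. Of 8 fits that left out 1 array, Tnfrsf1b passed in 3, those without saline array 4, colistin array 2 or colistin array 4 (adjusted p up to 0.0722 in the others). Tnfrsf12a passed in 2, those without saline array 2 or 4 (up to 0.0994 in the others). With slide as a block the adjusted p was 0.0925 for Tnfrsf1b and 0.096 for Tnfrsf12a. With normexp Tnfrsf1b gave 0.68 (adjusted p = 0.253). The receptor genes Tnfrsf1a (1.47 ± 0.43, adjusted p = 0.121) and Ltbr (0.90 ± 0.43, adjusted p = 0.249) did not pass.

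Kinases and adaptors had 0 of 19 past the test (limma, 5 at an unadjusted p under 0.05, against 22.7% of all genes) and a median of 1.13. Subunits and inhibitors other than the members had 0 of 4 (1 at an unadjusted p under 0.05). There Rela, the main activating subunit, gave 0.91 ± 0.52 (adjusted p = 0.321), and the inhibitor genes Nfkbib and Nfkbie gave 0.94 ± 0.49 (adjusted p = 0.286) and 0.92 ± 0.69 (adjusted p = 0.437). Rel had no matched probe. All 7 tested subunits and inhibitors, Nfkb1, Nfkb2 and Nfkbia included, had a positive difference, in the reported fit and in all 17 alternatives. Of these the replicate block could not change a sign, nor could leaving out 1 array for Nfkb1, whose groups do not overlap.

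Feedback genes other than Birc3 had 0 of 9 past the test (limma, 1 at an unadjusted p under 0.05) and a median of -0.30. Tnip1, which encodes a partner of the Tnfaip3 protein, gave -1.11 ± 0.79 (adjusted p = 0.415), and the deubiquitinase gene Cyld gave -0.56 ± 1.07 (adjusted p = 0.773). Target genes other than the members had 0 of 19 past the test (limma, 7 at an unadjusted p under 0.05, against 22.7% of all genes), with a median of 0.75. Of the 8 targets without a kept probe, Il6, Sele, Selp, Csf2 and Bcl2a1 were not well above background on any array.

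**Figure D4:**
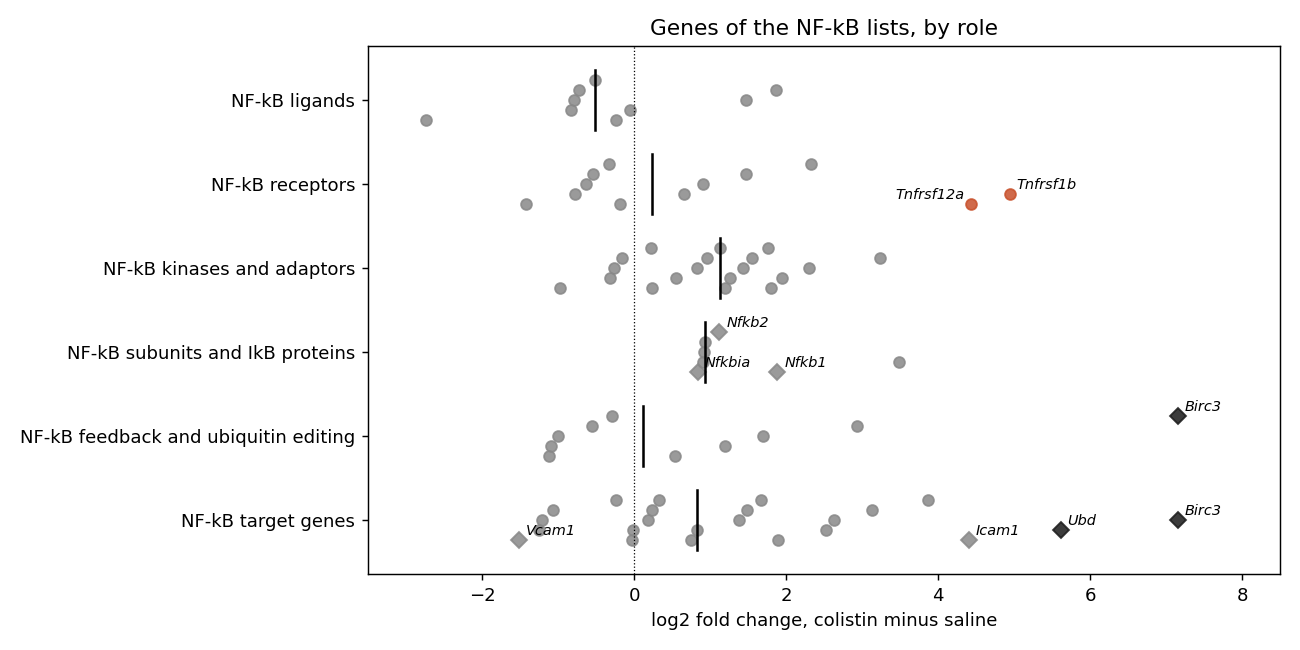
Log2 fold change of colistin over saline for every tested gene of the 6 NF-kB lists, 1 point a gene, with diamonds for the members and a vertical line at the median of each list. Orange marks the 2 genes that rose, black marks Birc3 and Ubd, which were chosen for their rise and carry no test, and grey marks genes that did not pass.

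The relatives Birc2, Xiap and Birc5 did not pass. Birc2, its nearest family member, gave signals of 11.6, 18.2, 96.3 and 19.3 with saline and 194, 69.6, 90.0 and 78.1 with colistin. The groups overlapped through saline array 3, and the difference was 1.20 ± 0.64 (log2, SE, adjusted p = 0.296). Xiap, the caspase-binding member of the family, gave -0.70 ± 0.60 (adjusted p = 0.492) and Birc5, a gene of dividing cells, 2.45 ± 0.92 (adjusted p = 0.179). Whether Birc3 differed more than its relatives was not tested.

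Other ubiquitin-like modifiers and the enzymes that attach the Ubd product had 0 of 11 past the test (limma, 3 at an unadjusted p under 0.05), with a median of 0.58. Uba6, the enzyme that activates the modifier, gave 0.58 ± 0.59 (adjusted p = 0.57), and Ube2z, its conjugating enzyme, 1.74 ± 0.59 (adjusted p = 0.156). Genes of the interferon gamma response had 0 of 14 past the test (limma, 6 at an unadjusted p under 0.05, against 22.7% of all genes), with a median of 0.77. In 6 of these 14 the colistin values lay above every saline value, as in 6.89% of all genes. They were Ifngr2, Irf1, Gbp2, Psmb9, Psmb10 and Cxcl10, chosen for mention after their values were seen.

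Markers of leukocytes were mostly lower on the colistin arrays, as were those of the other cell types listed. The counts below stand beside 6815 of all 12411 genes tested with a negative difference and 0.540% called lower. All 10 tested of 13 macrophage and monocyte markers had a negative difference and 1 fell (Ctss), with a summed scaled level of 133 to 223 on saline and 76.4 to 110.3 on colistin arrays. In all these sums, that of the endothelial markers included, bright probes weigh most. Here Cx3cr1 made up most of the sum, with a saline mean of 7.15 (scaled log2) against 3.62 for Aif1, the next. Cx3cr1 did not pass (limma adjusted p = 0.167). All 5 tested of 10 lymphocyte markers were negative in the reported fit and 1 fell (Cd4), at 1.90 to 3.41 on saline and 0.866 to 1.13 on colistin arrays. That sum was mostly Cd4, with a saline mean of 0.94 (scaled log2) against -2.09 for Cd3d, the next. Cd3g was positive with quantile normalization, with slide as a block and without saline array 1 or colistin array 1, 3 or 4, and Cd2, not tested in the reported fit, was positive with no filter on dim probes. All 4 tested of 8 neutrophil markers were negative (Camp was positive with slide as a block and without saline array 4) and none passed (limma, 2 at an unadjusted p under 0.05), at 0.293 to 0.927 and 0.154 to 0.225. Of the 10 proximal tubule markers 2 fell (Slc22a6 and Aqp1), 8 had a negative difference and 2 a positive one, Cubn with 1.25 ± 0.84 (log2, SE, adjusted p = 0.388) and Slc5a2 with 1.14 ± 0.47 (adjusted p = 0.2). Their sum, in which bright probes weigh most, was 755 to 1156 on saline and 262 to 489 on colistin arrays. Differences were negative for all 7 thick ascending limb markers (median -1.64), of which 1 fell (Egf). They were negative for 7 of 8 collecting duct markers (median -2.04), of which none fell. Negative differences were also found for 5 of 6 podocyte markers (median -1.05), of which 1 fell (Podxl). All 8 tested of 9 fibroblast and pericyte markers were negative (median -2.23) and 1 fell (Col1a2). A fall was therefore not particular to endothelial or leukocyte markers. The part of any of these cells, or of array brightness, in the members' values was not tested.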

How the data were processed

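Each array's deposited scanner table gives spot intensity on a linear scale. Per the submitters' processing notes it comes from Agilent Feature Extraction 10.5. Background was subtracted and spatial trend removed within an array, with no scaling between arrays, per the file headers. The log2 values in the authors' deposited table have no stated scaling and served as an alternative. Compared with the scanner values they are shifted per array and centred on each probe's median, with column medians of 0.232, 0.0227, 0.0862 and 0.195 on saline arrays 1 to 4 and -0.113, -0.229, -0.0885 and -0.0324 on colistin arrays 1 to 4. Control spots and 257 to 461 outlying spots per array were left out, and copies were averaged. Probes were kept if at least 1 spot passed the software's well-above-background flag on 3 or more arrays of a group (23718 of 30367 probes). Of all probes, 18643 were named through RefSeq accessions of the GRCr8 table, and a gene is its brightest kept probe (12411 genes). The scaled level is log2 minus the array's 75th percentile.

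Groups were compared with lmFit and eBayes of limma 3.58.1 under R 4.3.3, two-sided, and p-values were adjusted over all 12411 genes (Benjamini-Hochberg). The fit was tested on simulated data first. Normexp used the median spot and background signals, since the tables hold no mean spot signal. The members and lists were chosen with earlier results of these data known. Named genes were all members, the passing genes of each list (up to 4 per direction), the 5 nearest profiles to Birc3 and to Ubd (genes known only by a locus number left out), and relatives fixed whatever their result. One list of Birc3 relatives is not reported here in full. The alternatives covered background correction, scaling, probe filter and choice, the deposited table, slide, replicate number and each array left out. The number of arrays limits the precision.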

Additional observations from a re-analysis of the deposited data

Results flagged for a closer look

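Dixon's test was run on 82 groups of 4 samples, those of the genes whose values are given, and chance alone marks about 1 group in 20. It marked 5 samples. Uba6 had a scaled level of -2.72 on saline array 3, while the other 3 saline arrays lay between -1.09 and -0.96. Tnfrsf1b had -7.32 on saline array 2, against -6.75 to -6.68 on the others, and none of these 4 spots was well above background. Bcl3, which encodes an atypical IkB protein that works in the nucleus, had 2.80 on saline array 4, against -3.38 to -2.60 on the others. Ccl2, which encodes a monocyte chemoattractant, had -2.65 on colistin array 1, against -1.27 to -1.14 on the others. Ifngr2, an interferon gamma receptor chain gene, had -0.76 on saline array 1, against -0.12 to -0.0041 on the others.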

How the results depend on the processing

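No member changed sign under any of the 17 alternatives run, and Birc3 could not be fitted where probes had to be well above background on all arrays. For Birc3, Ubd, Icam1 and Nfkb1 the groups do not overlap, so leaving out 1 array could not reverse the sign. The replicate block gives the same differences as the reported fit, so it could not reverse any sign either. The 248 genes called became 3390 with normexp (684 higher, 2706 lower, or 20.2% higher against 73.0%), 40 with slide as a block and 5 with the replicate block. Under the strict filter 59.6% of 203 called genes were higher, with slide as a block 87.5%. Without 1 array the count ran from 78 to 255, with 98, 106, 110 and 78 without colistin arrays 1 to 4. With normexp the median of all genes was -0.34, Birc3 gave 2.22 and Ubd 4.25, and Nfkb1 (0.94, adjusted p = 0.0473) and Icam1 (3.10, adjusted p = 0.0108) passed. Icam1 also passed with quantile normalization (4.39, adjusted p = 0.0449), the strict filter (4.40, adjusted p = 0.0422) and the mean of a gene's probes (4.40, adjusted p = 0.0478). With 1 array left out Icam1 ran from 3.65 to 5.20 and the cause was not tested. The ranges were 6.97 to 7.37 for Birc3, 5.17 to 5.99 for Ubd, 1.32 to 2.35 for Nfkb1, 0.91 to 1.44 for Nfkb2, 0.55 to 1.28 for Nfkbia and -1.82 to -1.07 for Vcam1.

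Of the genes of the NF-kB lists other than Birc3 and Ubd, 2 passed in the reported setting (both higher), 17 of 77 with normexp (9 higher and 8 lower, where 27.3% of all genes passed), 4 with quantile normalization (with Ccl2 and Icam1 added), 0 with slide as a block (limma, 21 at an unadjusted p under 0.05), 0 with the replicate block (19) and 0 to 3 without 1 array (0 without saline array 3, colistin array 1 or colistin array 3, and 1 without colistin array 2 or 4). An equal count need not mean the same genes. Without saline array 1 the count was 2, while Tnfrsf1b (limma adjusted p = 0.0544) and Tnfrsf12a (limma adjusted p = 0.0762) did not pass. Same-numbered arrays did not deviate together (correlations of -0.02 to 0.01), so the replicate number is only a number, and the replicate block is given here alone. Weak saline signals limit folds of genes near background.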

Other observations

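The kappa-B consensus lay in the 250 bases before the start of 16 of 149 genes that rose after colistin and had a promoter entry (10.7%), of 5 of 49 that fell (10.2%) and of 804 of 10139 genes tested (7.93%). Among other genes of the NF-kB lists it was found in 19 of 75 (25.3%). These shares were not tested.

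Bcl3 gave 19.7, 18.4, 32.4 and 1091 on saline arrays 1 to 4 and 918, 1892, 634 and 1593 on colistin arrays 1 to 4. Saline array 4 stood with the colistin arrays in signal, while Ubd and Icam1 were lowest on that array. The log2 difference was 3.48 ± 1.30 (SE, limma adjusted p = 0.179), and without saline array 4 it was 4.93 (adjusted p = 0.00592). Ccl2 gave 13.0, 1.18, 7.81 and 2.27 with saline and 48.5, 139, 119 and 132 with colistin (3.86 ± 0.81, log2 difference and SE, limma adjusted p = 0.0585), and was well above background on 2 saline arrays. Both genes were chosen after their values were seen.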
